A study of Mus musculus with 12 samples.

Results

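The baseline transcriptome of untreated C2C12, a mouse skeletal muscle line whose libraries are titled as myoblasts, was described from 4 of the 12 RNA-seq libraries of a study of perfluorooctanesulfonic acid (PFOS). The 4 libraries were chosen by their dose label alone. They came from cells at 100% confluency that received 0 µM PFOS for 24 h, and they carried no other treatment or genetic change in the labels. The labels do not say which vehicle or medium the cells were in, and nothing says that the 4 libraries came from separate cultures, so the spread between them may be technical. The dosed libraries were not used, and no doses were compared. C2C12 is an established line, so the libraries describe 1 cell line and not muscle tissue.

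C2C12 cells are used as a model of muscle precursor cells. In growth they divide as myoblasts, and after contact and serum withdrawal they leave the cell cycle, switch on the myogenin programme, fuse and build sarcomeres. Many of the proteins involved come in families whose members are used at different stages: cytoskeletal actins, myosins and tropomyosins serve the dividing cell, and sarcomeric members serve the myotube. Metabolic enzymes and receptors likewise come as isoforms with tissue-typical use, such as GLUT1 and GLUT4 among the glucose transporters.

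Levels are given on 2 scales. CPM is a gene's read count scaled to a library total of 1000000 counts, with library sizes adjusted by the TMM method, and it was used for the spread of 1 gene between libraries. TPM divides the count by the gene's listed length before the same scaling, and levels of different genes are compared in TPM. An order or rank by CPM is given only to show where the order of genes rests on the length. A gene was taken as expressed at 1 TPM or more in all 4 libraries. Values for single libraries run from replicate 1 to replicate 4, a value after ± is the SD over those 4 libraries (n = 4), and CV is the SD of CPM as a percent of its mean. The 4 libraries held 30206155 to 45644739 counts. Replicate 1 stood slightly apart: over the expressed genes its root mean square deviation from the mean of the 4 libraries was 0.188 on the log2 scale, against 0.145 to 0.152 in the other 3. These are bulk samples, in which fewer cells of a type and less RNA per cell cannot be told apart.

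The actin family shows why isoforms need care in such a table, because its members have nearly the same protein. The skeletal (Acta1) and cardiac (Actc1) alpha-actins shared 98.9% of their residues, and the cytoplasmic beta (Actb) and gamma (Actg1) actins 98.9%. The coding sequences were less alike, at 86.2% for Acta1 and Actc1 and 88.7% for Actb and Actg1. The longest run of bases that any 2 of the 6 actins had in common was 77 bases, between Acta1 and Actb. The first 60 coding bases of each are shown from GENCODE M21 (GRCm38). Capitals mark the codons between the start codon and the residues DNGSG, which all 6 have in common. The isoforms differ in this N-terminal stretch and also at some of the codons shown after DNGSG. The 6 genes all lie on the minus strand, Acta1 at chr8:123891769-123894751, Actc1 at chr2:114047282-114053548, Acta2 at chr19:34241090-34255336, Actg2 at chr6:83512905-83536265, Actb at chr5:142903115-142906754 and Actg1 at chr11:120345690-120348542.
Acta1: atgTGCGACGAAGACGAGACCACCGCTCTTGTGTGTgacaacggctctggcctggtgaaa
Actc1: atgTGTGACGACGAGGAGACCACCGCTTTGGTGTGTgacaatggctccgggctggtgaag
Acta2: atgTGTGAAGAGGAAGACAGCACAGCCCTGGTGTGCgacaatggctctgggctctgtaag
Actg2: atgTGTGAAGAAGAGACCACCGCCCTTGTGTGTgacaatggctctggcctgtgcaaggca
Actb: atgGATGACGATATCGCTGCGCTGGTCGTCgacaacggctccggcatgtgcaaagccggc
Actg1: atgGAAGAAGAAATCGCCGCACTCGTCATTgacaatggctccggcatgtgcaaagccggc

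Actin promoters are a textbook target of serum response factor, which binds a motif named the CArG box. RefSeq promoters (GRCm38.p6) matched 4 of the 6 actins. The 110 bases before the start site are shown for these 4 because their levels, given further on, span the whole range of the family, and a CArG match is in capitals. The pattern searched was the exact one: CC, then 6 bases that are each A or T, then GG. It is its own reverse complement, so both strands were searched at once, and it was found in 535 of 32851 promoters of 300 bases (1.63%). Acta1 (chr8:123894776-123894885), Actc1 (chr2:114052876-114052985) and Actg1 (chr11:120348496-120348605) each had 1 match. The Acta2 window (chr19:34255374-34255483) held no exact match. It does contain ccctatatgg and ccttgtttgg, each 1 base off the pattern, so the search does not show that Acta2 lacks a CArG box. A match is a description of the letters and not a measured binding site.
Acta1: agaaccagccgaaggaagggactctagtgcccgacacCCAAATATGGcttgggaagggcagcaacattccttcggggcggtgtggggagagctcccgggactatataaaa
Actc1: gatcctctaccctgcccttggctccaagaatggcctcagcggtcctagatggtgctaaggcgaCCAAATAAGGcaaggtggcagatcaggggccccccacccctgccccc
Actg1: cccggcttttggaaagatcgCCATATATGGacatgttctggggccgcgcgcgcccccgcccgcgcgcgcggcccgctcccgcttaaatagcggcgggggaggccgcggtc
Acta2: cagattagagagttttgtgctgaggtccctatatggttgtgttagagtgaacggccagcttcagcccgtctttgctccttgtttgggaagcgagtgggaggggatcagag

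Of 54532 genes in the table, 12858 were expressed, and 11077 of these were protein coding. Their median level was 20.9 TPM. Between 1 and 10 TPM lay 3925 genes, between 10 and 100 TPM 7280, between 100 and 1000 TPM 1533, and 120 genes were at 1000 TPM or more. The 10 highest genes held 15.3% ± 1.5 of all TPM and the 100 highest 33.7% ± 1.5. Much of the top 10 share, and of its spread, came from Gm23935, a short feature of 57 bases at 70966 ± 14497 TPM. It is listed as a miRNA gene, and all miRNA genes together held 7.40% of TPM but 0.141% of counts. Shares with Gm23935 alone left out were not computed. By counts alone the top was flatter, with 5.80% ± 0.14 in the top 10 and 19.6% ± 0.31 in the top 100.

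Among the 20 genes highest by TPM were 5 mitochondrially encoded messages, 7 genes of translation factors and ribosomal proteins, and 4 short or duplicated features. The other 4 were Lgals1, Fth1, the chaperone Hsp90ab1 and the glycolytic kinase Pgk1. mt-Co1, a cytochrome oxidase subunit, reached 20951, 21455, 19348 and 18919.7 TPM, and the elongation factor Eef1a1 12337, 11894, 12291 and 12287 TPM. Lgals1 (galectin-1, a secreted lectin) stood at 9759.8 ± 283 TPM and Fth1 (ferritin heavy chain) at 5236 ± 92.6 TPM. Rank 1 by TPM belonged to Gm23935, listed as a miRNA gene of 57 bases, at 58048, 85167, 81751 and 58899 TPM. Replicates 2 and 3 were high and replicates 1 and 4 low for it, and its rank by CPM was 57. Short features gain most from division by length, and 3 processed pseudogenes (Gm13394, Gm15772 and Rps2-ps10) also stood in the TPM top 20 and not in the CPM top 20. Several of these levels are uncertain, since 50-base windows of the transcript were also found in transcripts of other genes, making up 68.0% of Pgk1, 59.2% of Eef1a1, 51.1% of mt-Co1 and 41.8% of Rplp0.

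By CPM the order was led by mt-Co1 (10289 ± 893 CPM) and Eef1a1 (10032 ± 220.2 CPM), and long extracellular matrix messages moved up. Col1a2, a chain of type I collagen, took rank 3 by CPM and 69 by TPM. Fn1 (fibronectin) took rank 6 by CPM and 88 by TPM, and Col3a1, the chain of type III collagen, rank 15 by CPM and 143 by TPM. Only 9 genes were in the top 20 on both scales, among them Eef2, Rplp0, Hsp90ab1 and Pgk1. Pkm, the pyruvate kinase, had rank 5 by CPM and 23 by TPM.

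**Figure D1:**
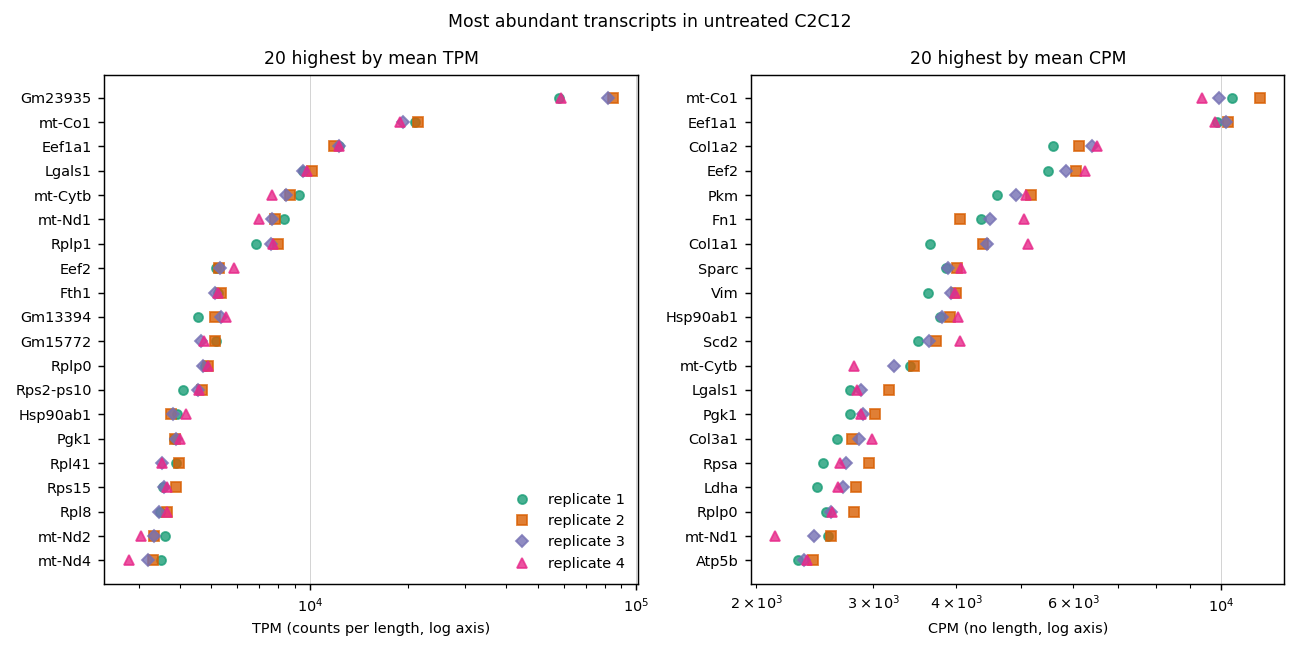
The 20 genes with the highest mean TPM (left, counts per length) and mean CPM (right, no length), 1 point per library, on log axes. Gm23935 leads by TPM and is absent from the CPM panel, and mt-Co1 and Eef1a1 are near the top of both.

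The label was checked against markers of myoblasts and of other cell types. Of 8 myoblast markers 7 were expressed, and their summed level was 429, 458, 471 and 519 TPM. The exception was Pax7, the satellite cell factor, at 0.098, 0, 0.105 and 0.142 TPM. Of 12 markers of differentiated muscle 8 were expressed, with a sum of 127, 104, 115 and 146 TPM, and the sum was highest in replicate 4 and lowest in replicate 2. All 10 proliferation markers were expressed, with Top2a (342 ± 20.9 TPM), Rrm2 (332 ± 12.1 TPM) and Mki67 (269.7 ± 17.5 TPM) among them, and with a sum of 1896, 1745, 1829.7 and 1863 TPM. These libraries thus held cell cycle messages at high level together with messages of the differentiation programme at low level. Whether both came from the same cells was not tested.

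Markers of other types were mostly low or at 0. The summed level of 5 macrophage markers was 0.87 to 2.94 TPM over the libraries, with Adgre1 and Itgam listed at 0, and that of 5 epithelial markers 0 to 0.35 TPM. Among 5 endothelial markers only Cdh5 was expressed (4.13 ± 0.271 TPM), beside Pecam1 at 0.036 TPM. Of 6 adipocyte markers Pparg and Fabp4 were expressed, while Adipoq and Lep were listed at 0. The neuron list had 2 of 5 markers expressed, Tubb3 (30.3 ± 5.50 TPM) and Syt1 (12.8 ± 1.17 TPM), with Rbfox3 at 0. The fibroblast and smooth muscle lists were high. The 8 fibroblast markers summed to 3980.3, 4185, 4477 and 5042 TPM, of which 5 were expressed, and Col1a1, Col1a2 and Col3a1 made up most of the sum. Of the remaining fibroblast markers Pdgfra was at 6.93 TPM, Dcn at 2.15 and Thy1 at 0.026 TPM, and Tcf21 was listed at 0. The 6 smooth muscle markers summed to 840.2, 819, 876 and 897 TPM, and 3 were expressed: Acta2 (774 ± 30.6 TPM), the actin-binding Smtn (79.7 ± 7.23 TPM) and Lmod1 (2.72 ± 0.602 TPM). Cnn1 (1.16 TPM), Tagln (0.160 TPM) and the smooth muscle myosin Myh11 (0.077 TPM) were not. The part of such cells in the results was not tested.

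The families comprised 152 groups with 633 genes: 55 muscle, 50 metabolic and 47 receptor families. At least 1 member was expressed in 146 of them, and 412 genes (65.1%) were expressed, against 55 genes with 0 counts in all 4 libraries. For comparison, 11077 of 22046 protein-coding genes were expressed, and 12858 of 54532 genes of any type. The members were chosen with earlier results of these data known, so their share was not tested against these backgrounds. In 143 of the 146 families the same member was highest in each of the 4 libraries. In 121 a single member held at least 50% of the family's TPM, and in 36 at least 90%. The ranges of the first and second member did not overlap in 139 families and overlapped in 7. So the identity of the leading isoform was mostly the same in every library, while the lead itself ran from almost nil to complete. Over the 4 libraries, 3 counts in total correspond to 0.0204 CPM, which is the upper limit that a gene with 0 counts allows (counting error only).

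Among muscle regulators, the determination factor Myod1 was the leading myogenic regulatory factor. Its level was 45.7, 50.4, 48.3 and 56.3 TPM, highest in replicate 4. Myogenin (Myog), which marks entry into differentiation, was at 13.2, 12.2, 18.3 and 15.3 TPM, and the early factor Myf5 at 2.95, 3.34, 4.53 and 3.29 TPM. The 3 ranges did not overlap, and replicate 3 was highest for both Myog and Myf5. Myf6 (MRF4), a late factor, had 0 counts. Myod1 thus held 73.3% ± 3.74 of the family's TPM. Both members of the Pax3 and Pax7 family were below the limit for expression, Pax3 with 0 counts.

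Cofactors and inhibitors of these factors were also expressed. Mef2d, a MADS-box cofactor, had 37.6, 38.7, 45.6 and 51.2 TPM and was above Mef2a (18.6 to 22.2 TPM) and Mef2c (9.40 to 11.9 TPM) in each library. That order rests on the listed length: by CPM or by the longest coding transcript Mef2a was above Mef2d. Id3, an inhibitor of E-protein dimers and so of Myod1 activity, stood at 147, 174, 154 and 177 TPM. It was the highest of the Id genes in each library, above Id1 (46.2 ± 2.03 TPM) and Id2 (20.1 ± 1.37 TPM). In the Eya coactivators Eya4 (35.7 to 43.8 TPM) and Eya3 (32.7 to 39.3 TPM) overlapped in range, although Eya4 was higher in each library.

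Actin, myosin and tropomyosin messages were highest for the genes of their cytoskeletal members. Counts are per gene, so splice forms of the same gene, as among the tropomyosins, were not told apart. Cytoplasmic Actg1 (1943, 1951, 2087 and 2110.4 TPM) and Actb (1764, 1793, 1816 and 1876 TPM) were the top actins, and their ranges were apart by a small margin. Smooth muscle alpha-actin Acta2 followed at 765, 735, 794 and 802 TPM, with a CV of 2.93%. Skeletal Acta1 was at 48.8, 38.9, 43.0 and 55.8 TPM, enteric Actg2 at 33.9, 37.8, 35.2 and 36.3 TPM and cardiac Actc1 at 7.82, 6.94, 7.77 and 10.2 TPM. Replicate 4 was highest and replicate 2 lowest for both Acta1 and Actc1, the actins of the sarcomere, whereas Acta1 and Actg2 are neighbours in rank whose ranges were apart by less than 2 TPM. Of the 50-base windows of Actg1 56.7% were also found in transcripts of another gene, and 14.2% of those of Actb, so the counts of these genes are uncertain to the extent that reads in such windows were left out or split. For Acta1, Actc1, Acta2 and Actg2 the share was at most 2.22%.

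Of 10 sarcomeric myosin heavy chains, the motor proteins of the thick filament, only a few were measurable. Myh1, the fast IIX chain, was highest at 11.1, 9.30, 11.8 and 10.5 TPM. The embryonic chain Myh3 was at 6.96, 3.36, 5.13 and 7.90 TPM, with replicates 1 and 4 high and replicate 2 low. Its CV of 31.6% compares with 4.96% from counting alone. The ranges of Myh1 and Myh3 did not overlap, but 26.7% of the windows of Myh1 were found in other genes, so its level is uncertain. Myh2 and Myh13 were near 1 TPM, and perinatal Myh8, a chain of immature fibres, was at 0.052 TPM. The nonmuscle heavy chain Myh9, by contrast, was at 417, 393, 441 and 463 TPM and held 98.4% ± 0.171 of its family.

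Light chains gave the same division. Myl6, the nonmuscle essential chain, was at 522 ± 15.6 TPM and held 97.3% ± 0.191 of its family, and Myl12a led the regulatory chains at 144 ± 5.46 TPM. Second to Myl12a was Mylpf, the fast skeletal regulatory chain, at 30.1, 25.005, 21.5 and 36.5 TPM, again highest in replicate 4. It overlapped in range with the third, Myl9 (20.9 to 24.0 TPM), and was above it in 3 of 4 libraries. Of the windows of Myl12a 29.6% were found in other genes. The cardiac chains Myl2, Myl3 and Myl7 had 0 counts.

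On the thin filament, Tpm4 (1156, 1063, 1107 and 1114 TPM), a cytoskeletal tropomyosin, exceeded Tpm1 (267 to 284 TPM), Tpm2 (213 to 235 TPM) and Tpm3 by 4.04-fold or more, and its CV was 1.78%. The level of Tpm3 is uncertain, with 62.4% of its windows in other genes, against 12.1% for Tpm4 and none for Tpm1 and Tpm2. The troponins, found only in striated muscle filaments, were low but present. Slow Tnnc1, the calcium-binding subunit, was at 39.1, 33.5, 33.1 and 35.6 TPM, whereas fast Tnnc2 had 0 counts. Of the exon bases of Tnnc2 74.0% lie in exons of another gene, Ube2c, a mitotic ubiquitin-conjugating enzyme with 138 TPM, so the 0 of Tnnc2 is uncertain. Slow Tnnt1 was at 16.7, 19.7, 16.0 and 15.9 TPM and cardiac Tnnt2 at 12.2, 12.4, 12.6 and 12.6 TPM, with Tnnt1 higher in each library by TPM and lower by CPM or by the longest coding transcript. The inhibitory subunit was divided between Tnni2 (4.30 to 6.94 TPM), Tnni1 (1.17 to 3.57 TPM) and Tnni3 (1.73 to 2.53 TPM), and Tnni1 had a CV of 41.6%, the highest in the muscle families.

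Other cytoskeletal and membrane families also had nonmuscle leaders. Actn4, a crosslinker of actin stress fibres, was at 257 ± 15.1 TPM, against 19.2 ± 1.4997 TPM for the fast-fibre Actn3 and 0.013 TPM for Actn2 of the Z-disc. Cnn3, an actin-binding calponin, was at 583, 543, 561 and 573 TPM, with a CV of 1.06%, the second lowest of all expressed members. Tagln2 stood at 577 ± 30.1 TPM, while Tagln (SM22), a smooth muscle marker, was at 0.160 TPM. The low value of Tagln is uncertain because 67.9% of its exon bases lie in exons of Gm48529, which itself had 12 counts in all. The intermediate filament protein vimentin (Vim) was at 2381, 2437, 2492 and 2623 TPM, above the muscle protein desmin (Des, 190.1, 212, 212 and 236 TPM) and the progenitor protein nestin (Nes, 198, 200.3, 209 and 225 TPM). Desmin and nestin overlapped in range.

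Within the adhesion and membrane genes, Itgb1 (592 ± 34.5 TPM) and Itga3 (183 ± 18.7 TPM) were the highest integrin chains. The cadherins that join myoblasts, N-cadherin (Cdh2, 61.4 ± 4.69 TPM) and M-cadherin (Cdh15, 35.4 ± 2.82 TPM), were first and second of 9. Utrn (utrophin) was at 58.9, 46.7, 54.9 and 62.6 TPM. Its paralogue dystrophin (Dmd), which links actin to the membrane in fibres, had 0 counts in each library, and none of its exon bases are shared with another gene. The fusion proteins Mymk and Mymx were at 10.1, 7.14, 8.83 and 9.41 TPM and 2.15, 2.67, 3.21 and 2.63 TPM, respectively. The acetylcholine receptor had its alpha subunit Chrna1 (39.8 ± 4.13 TPM) and beta subunit Chrnb1 (19.4 ± 2.51 TPM) expressed, with fetal Chrng at 2.12 TPM and adult Chrne at 0.031 TPM.

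Calcium handling was led by Atp2a2 (SERCA2), the widely used pump of the reticulum, at 125, 106, 119.9 and 127 TPM, which is 92.2% ± 0.618 of its family. The fast-fibre pump Atp2a1 was at 2.76, 3.45, 3.79 and 4.54 TPM. No L-type calcium channel alpha subunit and no sodium channel alpha subunit was expressed, and the ryanodine receptors had only Ryr3 past 1 TPM (1.00 to 1.46 TPM). The IP3 receptor Itpr3 was far higher (68.1 ± 6.73 TPM). Ckb, the brain-type creatine kinase, was at 5.36, 3.79, 6.09 and 6.10 TPM, and the muscle type Ckm at 0.134 TPM. Of the windows of Ckb 21.9% were found in other genes, so its level is uncertain.

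Cell cycle regulators in the list were expressed in both directions of control. Cyclin D1 (Ccnd1), which drives entry into S phase, was at 237, 225, 239 and 257 TPM, and the inhibitor p21 (Cdkn1a), which accompanies exit from the cycle, at 150.2, 163, 165 and 199 TPM. Cdkn2d (144 ± 4.85 TPM) led the INK4 inhibitors, by a lead that was lost by CPM. Cdkn2a and Cdkn2b had 0 counts. Among matrix genes Col1a1 was at 1730.5, 1932, 2039.5 and 2443 TPM and Col1a2 at 1402, 1424, 1552 and 1639 TPM, and Col1a1 was lowest in replicate 1 and highest in replicate 4. By CPM Col1a2 was the higher of both. Ankrd1, a stress-responsive ankyrin repeat protein, was at 494, 406, 459 and 416 TPM and made up 99.9% ± 0.093 of its family.

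**Figure D2:**
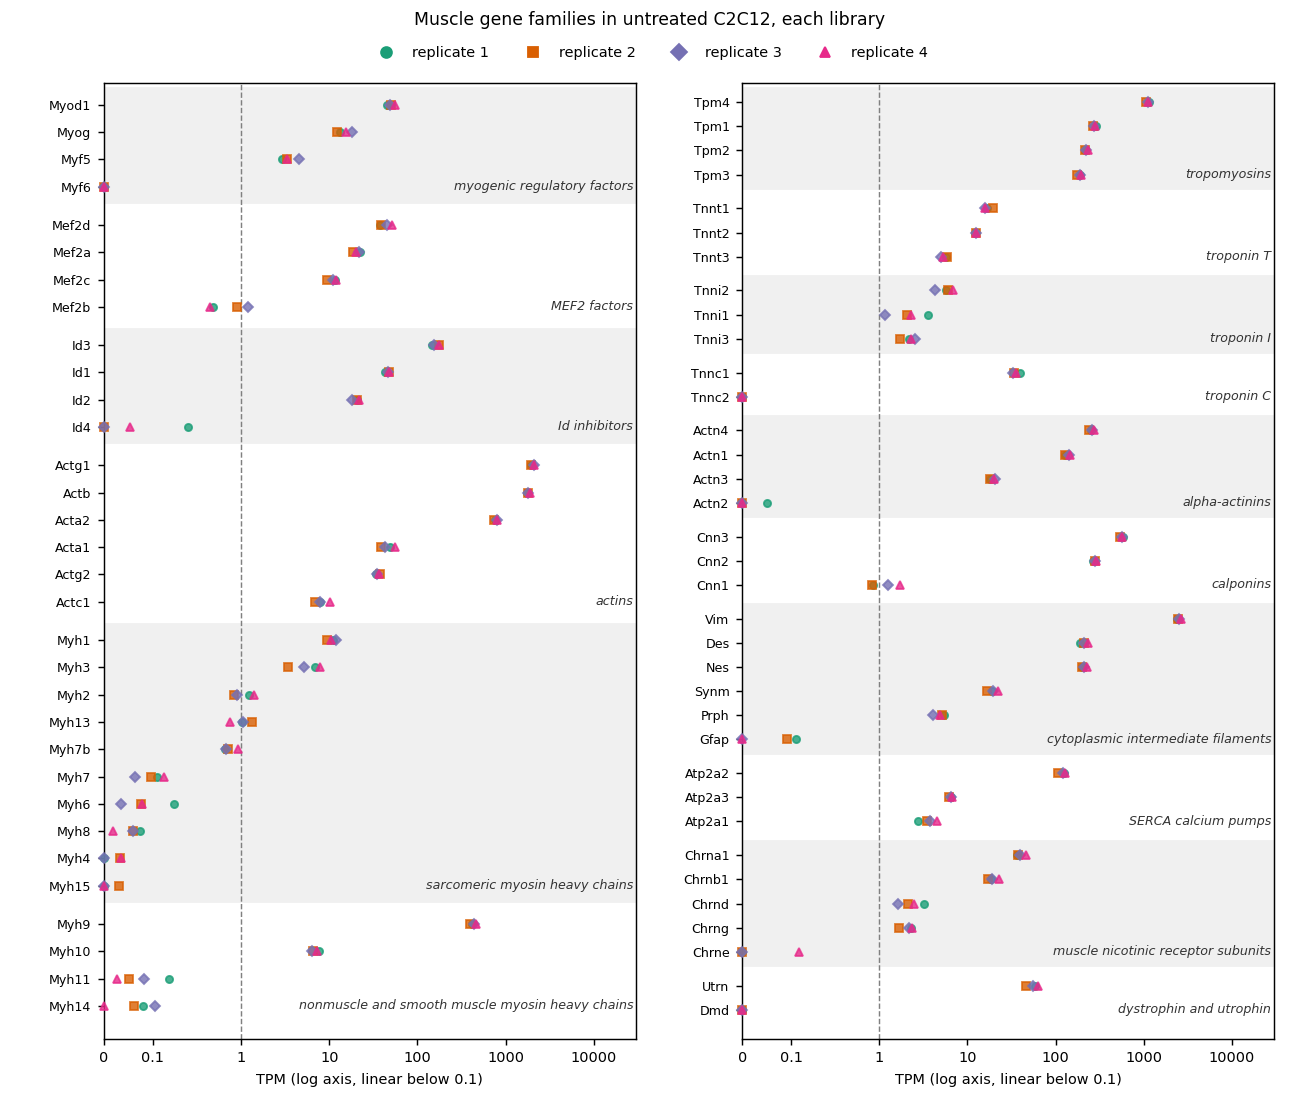
TPM of every member of 16 muscle families in each of the 4 libraries (log axis, linear below 0.1, dashed line at 1 TPM), with members of a family ordered by mean. Cytoskeletal members such as Actg1, Myh9 and Tpm4 sit far to the right of sarcomeric ones, and Myf6, Tnnc2 and Dmd lie at 0 in every library.

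Among metabolic families, each of the 50 had an expressed member, and most steps of glycolysis had a single leading isoform. GLUT1 (Slc2a1) was at 332, 342, 348 and 393 TPM and held 90.02% ± 0.252 of 10 transporters. The insulin-responsive GLUT4 (Slc2a4) was at 2.18, 2.46, 2.03 and 2.51 TPM. Hexokinase was the exception to single leadership: Hk2 (124, 116, 131 and 144 TPM) and Hk1 (114, 115, 125 and 138 TPM) overlapped in range, and Hk1 was the higher by CPM and by the longest coding transcript. The liver-type phosphofructokinase Pfkl (248 ± 20.4 TPM) exceeded the muscle type Pfkm (128 ± 7.18 TPM), with ranges apart.

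Further down the pathway the leaders were nearly alone. Aldoa stood at 1630.2 ± 83.5 TPM, Pgam1 at 1881 ± 111 TPM and Pkm at 2865, 2991, 2961 and 3181 TPM, each with over 90% of its family. Of 2 rows that carry the symbol Aldoa, the one with more counts was taken. Ldha, which turns pyruvate to lactate, was at 2322, 2465, 2456 and 2501 TPM, against 42.6, 44.2, 40.1 and 31.7 TPM for Ldhb, and held 98.4% ± 0.251. Ldhb was lowest in replicate 4. The enolases divided between ubiquitous Eno1 (1054 ± 67.4 TPM) and the muscle enolase Eno3 (573, 574, 559 and 589 TPM). Windows found in other genes made up 72.2% of Eno1, 41.5% of Pgam1, 34.4% of Pkm, 27.0% of Ldhb and 16.6% of Ldha, so these levels are uncertain. Muscle-type Pgam2 was at 5.25, 7.14, 8.21 and 9.76 TPM.

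Control points around pyruvate and glycogen had these isoforms. Pdk1, an inhibiting kinase of pyruvate dehydrogenase, was at 124, 116, 126 and 128 TPM, above Pdk3 (89.6 to 106 TPM) in each library, with Pdk4, a kinase raised on fasting, at 20.8 ± 1.23 TPM. Mitochondrial Pck2 (258 ± 10.6 TPM) was expressed and cytosolic Pck1 had 0 counts. Glycogen synthase was Gys1 (132 ± 15.7 TPM), the muscle form. Glycogen phosphorylase was Pygb (53.0, 53.2, 54.3 and 54.7 TPM), the brain form, with muscle Pygm at 0.983, 0.833, 2.26 and 2.26 TPM. Of AMPK, the energy sensor, the catalytic subunit was almost wholly Prkaa1 (73.9 ± 5.04 TPM).

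Lipid genes were led by desaturases. Scd2, which makes monounsaturated fatty acids, reached 1995, 1976, 2006 and 2319 TPM. On this scale replicate 4 was high while the other 3 were close together, and by CPM they were less close (3497, 3727, 3634 and 4047). Scd1 was at 499, 461, 497 and 535 TPM. Cpt1a, the gate of mitochondrial fatty acid import, was at 61.7 ± 4.87 TPM, and the muscle isoform Cpt1b at 0.192 TPM. Cpt1b is uncertain, since 81.4% of its exon bases lie in exons of Gm44502, which had 0 counts itself. Fabp5 (60.5, 56.5, 57.8 and 57.8 TPM), a carrier of fatty acids, held 90.4% ± 1.14 of its family. The heart carrier Fabp3 was at 1.40, 2.56, 2.89 and 1.51 TPM, with replicates 2 and 3 high. Windows in other genes were 29.2% of Fabp3 and 21.1% of Fabp5. The 3 lipins, phosphatidate phosphatases, were close by TPM: Lpin1 (15.5 to 19.9 TPM), Lpin3 (14.9 to 18.5 TPM) and Lpin2 (13.9 to 15.5 TPM) overlapped, and Lpin1 was first in only 2 of 4 libraries. This rests on the listed lengths: the lead of Lpin1 over Lpin3, 0.0092 on the log2 scale by TPM, was 1.39 by CPM and 0.71 by the longest coding transcript. On lipid droplets Plin2 (92.1 ± 2.21 TPM) was first and Plin3 (71.0 ± 5.79 TPM) second, and Plin1 of adipocytes was at 0.048 TPM. Hmgcs1 of sterol synthesis was at 212 ± 7.04 TPM.

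Respiratory chain isoforms were those of most tissues. Cox4i1 (501 ± 17.2 TPM), Cox6a1 (1100.5 ± 51.0 TPM) and Cox8a (1329 ± 37.3 TPM) led, at 94% or more of each family. The heart and skeletal muscle forms were Cox6a2 at 59.6, 72.0, 72.0 and 70.4 TPM, Cox7a1 at 1.61, 5.25, 5.16 and 4.66 TPM and Cox8b at 0.665 TPM. Replicate 1 was low for both Cox6a2 and Cox7a1, and Cox7a1 had a CV of 42.9%, the highest of all expressed members, at a counting error of 18.8%. The ATP/ADP carriers were shared by Slc25a5 (1139 to 1179.6 TPM) and the muscle form Slc25a4 (865 to 899 TPM), with Slc25a5 higher by TPM and lower by CPM. Of the windows of Slc25a5 46.6% were found in other genes. Pprc1 (22.2 ± 1.00 TPM) led the PGC-1 coactivators, with Ppargc1a, the inducer of mitochondrial genes, at 6.14, 4.30, 4.72 and 4.71 TPM.

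In redox and gas exchange families, Prdx2 (660.0 ± 14.9 TPM) and Gpx4 (464 ± 27.1 TPM) led the peroxiredoxins and glutathione peroxidases, which remove peroxides. Gpx4 had 61.7% of windows found in other genes and is uncertain. Car9, a carbonic anhydrase of the cell surface known as a hypoxia-response gene, was at 494, 533, 514 and 603 TPM and held 70.0% ± 1.47 of 14 genes. The muscle enzyme Car3 was at 56.4, 53.2, 55.2 and 58.9 TPM. Myoglobin (Mb), the oxygen store of fibres, was at 6.75, 4.11, 2.72 and 6.05 TPM, high in replicates 1 and 4.

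**Figure D3:**
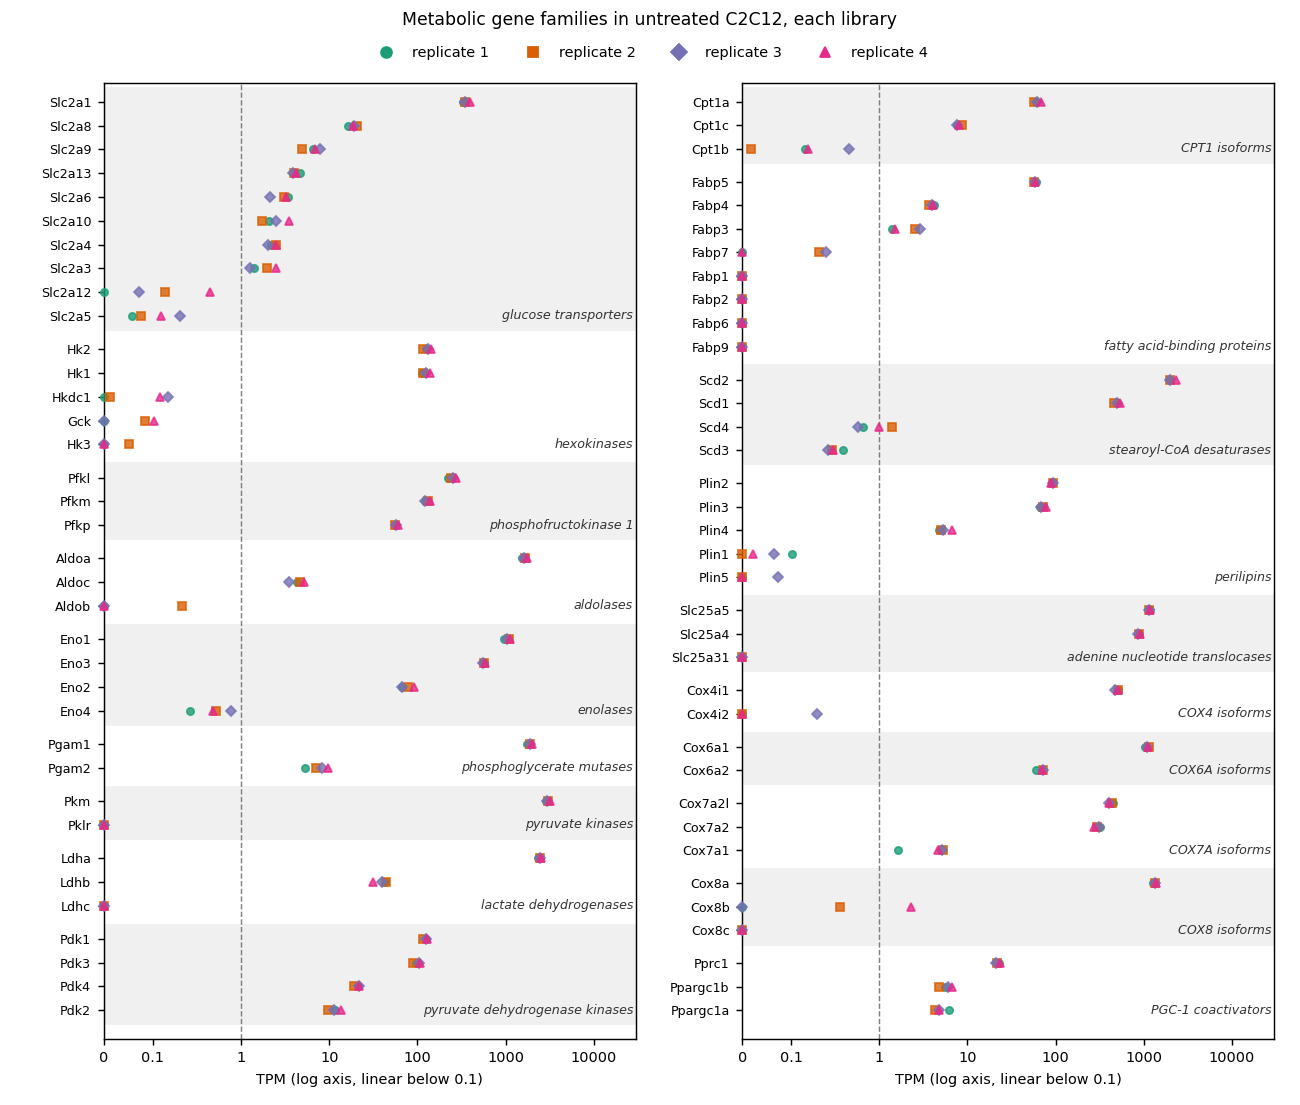
TPM of every member of 19 metabolic families in each of the 4 libraries (log axis, linear below 0.1, dashed line at 1 TPM). Slc2a1, Pkm and Ldha stand far above their relatives, Hk2 and Hk1 overlap, and Cox7a1 is spread more widely than Cox7a2l.

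PFOS is known as an activator of peroxisome proliferator-activated receptors in liver, so these receptors open the account of the receptor families. Ppard was the leading PPAR at 29.9, 35.3, 36.2 and 40.3 TPM. Pparg, the adipocyte regulator, was at 15.6, 17.3, 18.1 and 15.6 TPM, and the ranges were apart. Ppara, the liver receptor, was at 0.225, 0.383, 0.120 and 0.054 TPM, below the limit for expression in each library. The partners of PPARs were Rxrb (46.4 to 56.8 TPM) and Rxra (32.4 to 38.4 TPM), while Rxrg had 0 counts. Ppard held 67.6% ± 2.97 of the PPAR total.

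Other nuclear receptors mostly had 1 leader. The glucocorticoid receptor Nr3c1 was at 79.3, 69.6, 73.2 and 78.9 TPM, with a CV of 2.80%. Esr1 was at 1.81 ± 0.202 TPM, and Esr2 and Pgr had 0 counts. Thra (63.0 ± 2.55 TPM) made up nearly all of the thyroid hormone receptors, Nr1h2 (69.3 ± 5.56 TPM) of the LXR pair and Esrra (53.6 ± 5.07 TPM) of the estrogen-related receptors. Rarg (99.4 ± 8.30 TPM) was above Rara (49.0 ± 7.28 TPM) in each library. The clock receptors Nr1d2 (36.6 to 45.2 TPM) and Nr1d1 (21.6 to 34.2 TPM) were both expressed.

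In growth factor signalling, the IGF axis was described from ligand to binding protein. Igf1 was at 4.48, 3.66, 4.14 and 4.62 TPM. Igf2, an autocrine growth factor of myoblasts, had 0 counts, but 64.5% of its exon bases lie in exons of Gm49394, which also had 0 counts, so its value is uncertain. Among the receptors Igf2r, which clears IGF2, was at 42.4 ± 5.03 TPM, the insulin receptor Insr at 16.7, 14.3, 16.0 and 17.1 TPM and Igf1r at 13.6, 12.8, 14.2 and 16.9 TPM. Insr and Igf1r overlapped in range. Of the binding proteins, 6 of 7 were expressed, led by Igfbp5 at 611, 556, 638 and 689 TPM, higher than any receptor or ligand of the axis.

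Most receptor kinase families had a first member apart from the second. Axl, a receptor for Gas6, was at 193 ± 11.4 TPM, collagen-binding Ddr2 at 136, 107, 129 and 134 TPM and Pdgfrb at 81.5, 81.2, 90.1 and 93.1 TPM. Met, the receptor for hepatocyte growth factor that activates satellite cells, was at 55.9, 45.6, 50.5 and 57.1 TPM. Fgfr1 was at 34.8, 36.8, 39.1 and 43.9 TPM and the decoy-like Fgfrl1 second at 22.9 to 28.1 TPM. Fgfr4, the receptor typical of muscle precursors, was at 6.69 TPM. No VEGF receptor was expressed. TGF-beta restrains myogenesis, and its type II receptor Tgfbr2 was at 88.9, 83.5, 92.7 and 98.2 TPM. Among type I receptors of the wider family the BMP receptor Bmpr1a was first at 71.9 ± 6.34 TPM, before Acvr1 (29.6 ± 1.79 TPM) and the TGF-beta receptor Tgfbr1 (22.0 ± 2.51 TPM). The leading TGF-beta ligand was Tgfb3 at 93.6 ± 6.48 TPM. Notch2 (42.1 to 54.9 TPM) and Notch3 (38.8 to 52.7 TPM) overlapped, with Jag2 (51.0 ± 5.23 TPM) as the leading ligand.

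Receptors for cytokines and small ligands were led as follows. Il6st (gp130), the shared chain of IL-6 type receptors, was at 68.2 ± 4.83 TPM, and Tnfrsf1a at 138, 146, 141 and 158 TPM. The alpha1D receptor Adra1d was at 11.3, 17.3, 15.7 and 18.0 TPM and was lowest in replicate 1. Lpar4, a lysophosphatidic acid receptor, was at 96.8, 70.2, 77.0 and 64.8 TPM, highest in replicate 1. The sphingosine-1-phosphate receptors S1pr1 (8.08 to 8.53 TPM) and S1pr2 (6.72 to 8.66 TPM) overlapped, and S1pr1 was first in 3 of 4 libraries by TPM only. The thrombin receptor F2r was at 91.3 ± 1.61 TPM, and the endocytic receptor Lrp1 at 237 ± 35.9 TPM. Tlr2 (27.3 to 34.3 TPM) and Tlr4 (22.7 to 26.2 TPM), sensors of bacterial products, were expressed, with Tlr2 first by TPM and Tlr4 by CPM. The fatty acid receptor Cd36 had 0 counts, with none of its exon bases shared with another gene. No prostaglandin E or endothelin receptor was expressed.

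**Figure D4:**
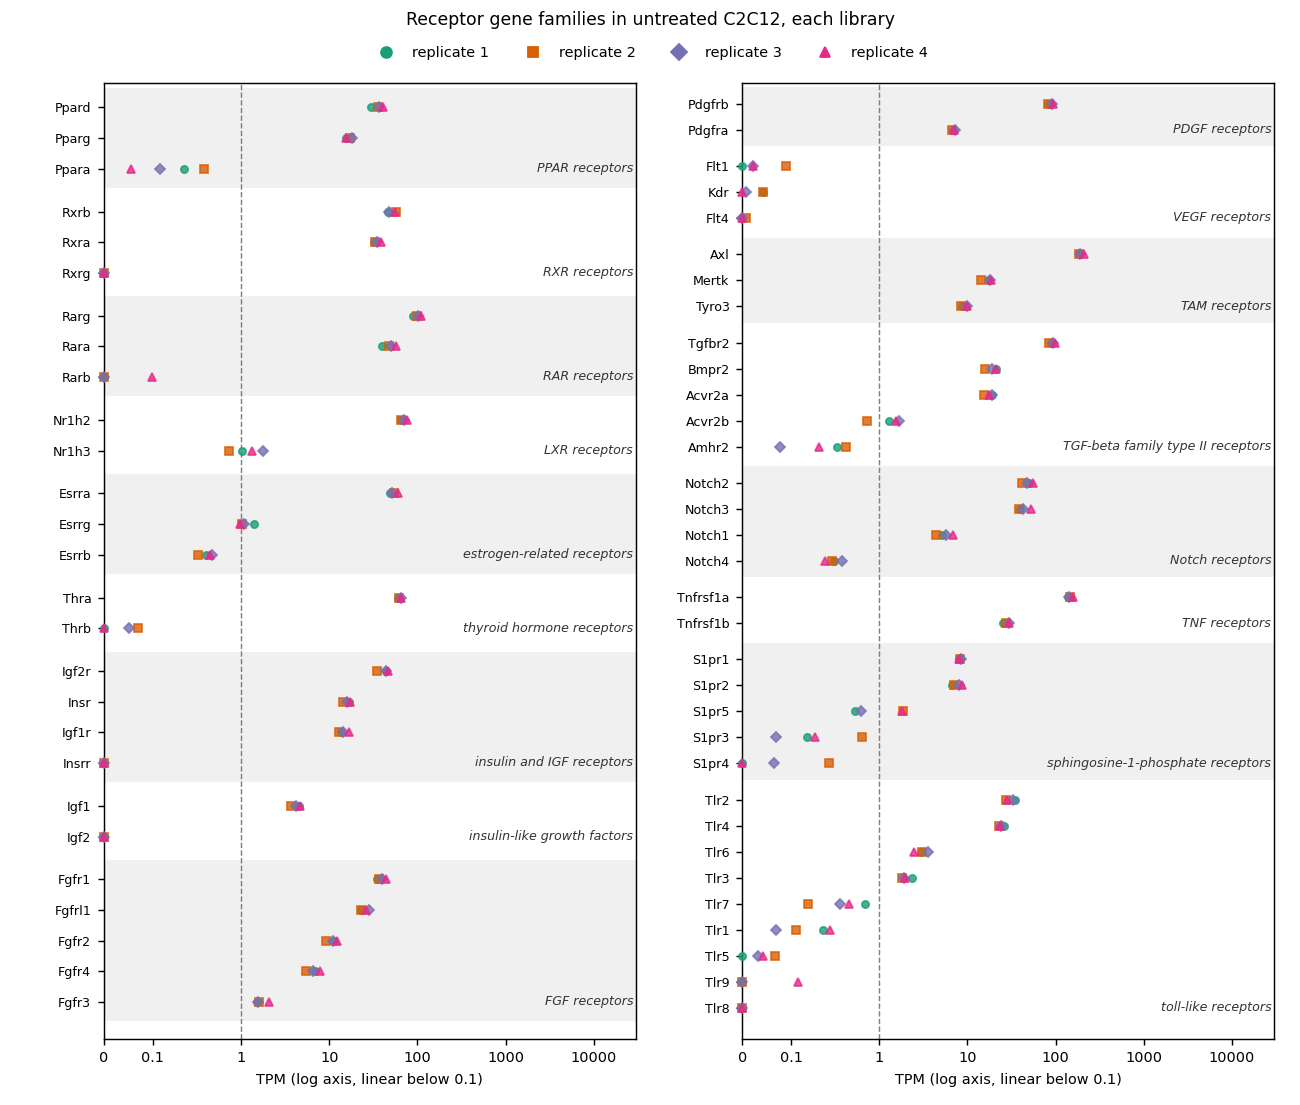
TPM of every member of 17 receptor families in each of the 4 libraries (log axis, linear below 0.1, dashed line at 1 TPM). Ppard lies above Pparg and far above Ppara, S1pr1 and S1pr2 overlap, and the VEGF receptors lie below 1 TPM in every library.

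The spread between libraries was small for most genes. Over the 12858 expressed genes the median CV was 8.26%, with 10% of genes under 3.52% and 10% over 25.2%. The median CV that counting alone gives was 3.00%. A CV under 10% was seen in 7828 genes (60.9%), and 286 genes were over 50%. The common biological coefficient of variation from edgeR was 10.6%, and 9.02% without replicate 1. Against the median of 8.26% over all expressed genes, the median CV of expressed members was 7.08% for muscle, 6.44% for metabolic and 9.02% for receptor genes.

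Within the families, the members with the highest CVs were low in level, and over all expressed genes the median CV was 15.7% at 1 to 10 TPM against 7.06% at 10 to 100 TPM. After Cox7a1 and Tnni1 came Fabp3 (38.2%), Adra1b (36.8%), Tmod1 (36.4%), Mb (35.0%) and Myh3 (31.6%). For Tmod1, which caps thin filaments, the values were 1.89, 1.38, 1.77 and 3.24 TPM, high in replicate 4. All 7 had under 10 TPM. The lowest CV belonged to Acadm (1.03%), an enzyme of fatty acid oxidation, at 121, 115, 117 and 122 TPM, and to Cnn3. The order of neighbouring members within families was the same in all 4 libraries for 245 of 281 pairs, and 48 of the 281 overlapped in range.

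Over all protein-coding genes with a mean of 10 CPM or more, the most variable was Sumo2, a small ubiquitin-like modifier, at 95.8, 47.3, 107 and 15.4 CPM, a CV of 64.3%. Replicates 1 and 3 were high and replicate 4 low. mt-Co2 and mt-Co3, oxidase subunits encoded beside mt-Co1, followed with 148, 102, 65.8 and 59.7 CPM and 44.9, 22.6, 19.97 and 19.2 CPM, both highest in replicate 1. Per length they were counted at 417 ± 185 TPM and 104 ± 49.8 TPM, far below mt-Co1. This difference in level is uncertain, since mt-Co2 (100.0% of windows) and mt-Co1 both share much sequence with transcripts of other genes. Gapdh, the glycolytic enzyme commonly used as a reference gene, had only 81.4, 98.9, 42.4 and 94.8 CPM, low in replicate 3, at a CV of 32.4%. Of the 15 most variable genes 11 had over 10% of their windows in other genes (median 82.5%), Gapdh 82.5% and mt-Co2 100.0%. Of the 10 least variable 1 did, and of the 633 family members 47. The part of such shared sequence in the spread was not tested. Of these 15, only Myh3 belongs to a family described here.

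The 10 lowest CVs, picked from 9030 named protein-coding genes with a mean of 10 CPM or more, were under 1%. Kars, the lysyl-tRNA synthetase, had 199, 198, 198 and 199 CPM, a CV of 0.306%. Ppp2ca, the catalytic subunit of phosphatase 2A, had 338, 336, 334 and 335 CPM, a CV of 0.525%. Their CVs were below the counting error (1.17% and 0.900%), as were those of 774 of the 12858 expressed genes. The order of such genes by CV was therefore not read as a property of the genes.

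**Figure D5:**
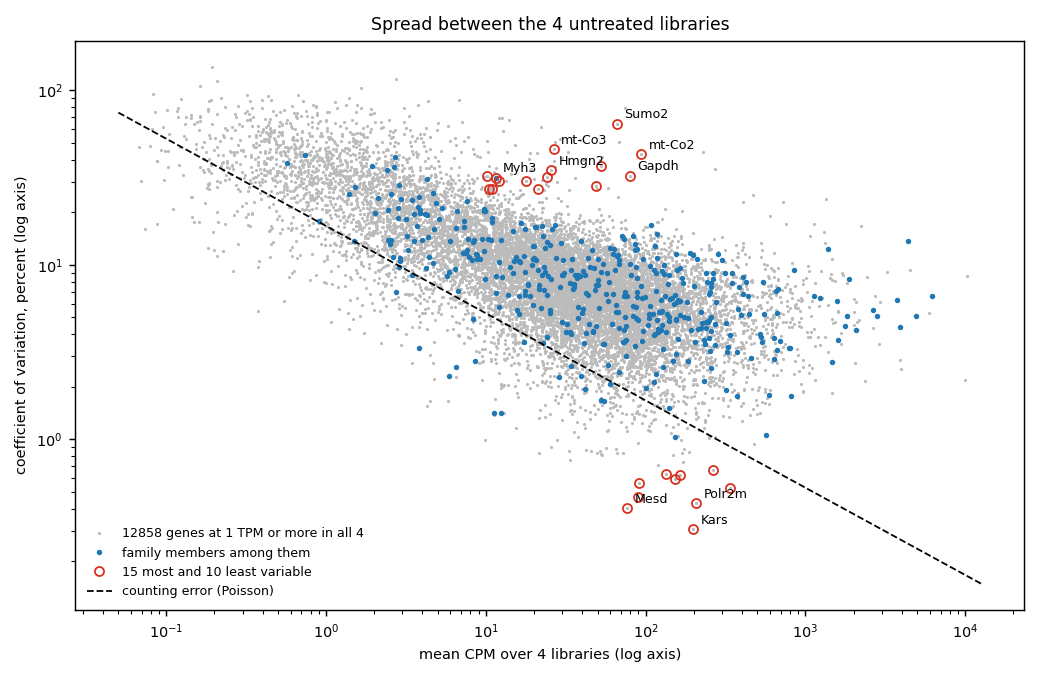
CV of CPM over the 4 libraries against mean CPM for the 12858 expressed genes (grey), family members (blue) and the 15 most and 10 least variable protein-coding genes with a mean of 10 CPM or more (red rings), with the counting error as a dashed line, on log axes. Most genes lie above the counting line, and Sumo2 (64.3%) lies highest of the ringed genes.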

How the data were processed

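RNA-seq gene counts of untreated C2C12 were taken from the 4 columns labelled 0 µM; the other 8 libraries were not used. The authors deposited raw read counts per gene with a gene length in bases. Per the submitters' processing notes, HISAT2 and GRCm39 were used. Not given in the sources used here: versions, the counting program, strand setting and annotation release. The coordinates of the deposited table equalled those of GENCODE M21 (GRCm38) for 98.3% of 54409 genes found in both, and its lengths equalled the union of exons for 98.0%. Coordinates are therefore named GRCm38.

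TPM and CPM were computed in Python 3.11.15 (pandas 2.3.3, numpy 2.4.6). TMM library sizes and the common dispersion came from edgeR 4.0.16 in R 4.3.3, and DESeq2 1.42.0 gave alternative size factors. Scripts were tested on simulated data. No samples were compared by a test, since all 4 belong to 1 group. Depth was 30206155 to 45644739 counts per library, so counting error is small for all but low genes; it covers counting only.

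The families and marker lists (myoblast, differentiated muscle, fibroblast, smooth muscle, adipocyte, endothelial, macrophage, neuron, epithelial, proliferation) and the members were chosen with earlier results of these data known. Genes were named by rule: up to 3 members per family with the highest mean TPM of 1 or more, all myogenic regulatory factors, PPARs and actins, the top 20 by TPM and by CPM, and, among protein-coding genes with mean CPM of 10 or more and a symbol other than Gm or Rik names, the 15 highest and 10 lowest CVs. Members at 0 or named for contrast outside this rule (such as Dmd, Tnnc2, Igf2, Cd36, Fgfr4, Tagln and Cpt1b) were chosen after their values were seen. Shared sequence was measured as 50-base windows of the longest coding transcript found in transcripts of other genes, and exon overlap on either strand; both were added after the values were seen. Alternatives were the length used, the scaling, the filters, the denominator and leaving out each replicate. The rule gave 397 genes; the text describes some of them, and the other members enter only its counts and figures. Results for a few genes are not reported here.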

Additional observations from a re-analysis of the deposited data

Results flagged for a closer look

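With 4 libraries, a single value was picked out where its gap to the nearest other value was large against the whole range (Dixon's test at the 95% level, which chance meets in about 5% of groups). It did so for 20 of 397 named genes (5.04%), which is about that share, and for 7 of 115 family shares. The shares were limited to families with at least 2 expressed members after a wider check had been seen. Values are TPM in the library concerned against the mean of the other 3. For genes the check was run on TPM, which in a library also shifts with the level of all other genes. Protein-coding genes held 84.0%, 82.1%, 82.7% and 85.0% of TPM in replicates 1 to 4. Kars, at a CV of 0.306% by CPM, read 138, 128, 133 and 139 TPM. A value that stands apart by TPM therefore need not do so by CPM.

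Replicate 4 was high for Scd2 (2319 against 1993), Gpx1 (259 against 233), Hmgcs1 (222 against 208), Itga3 (211 against 174), Pfkfb4 (22.5 against 20.7), Ptch1 (21.8 against 17.5), Nr4a1 (12.6 against 10.4) and Adora2b (11.03 against 6.65). Replicate 1 was high for Gpx8 (235 against 211), Myl12a (152 against 141), mt-Co3 (178 against 78.8) and Ftl1-ps1 (44.7 against 25.3). Replicate 4 alone thus had 8 of the 20 by TPM, among them the fatty acid enzyme Scd2, the integrin Itga3 and the early response receptor Nr4a1. Scd2 was at 3497, 3727, 3634 and 4047 CPM, still highest in replicate 4 but with the rest less close together. Replicate 3 was high for Timm23 (116 against 71.0), Hmgn2 (38.0 against 21.03) and S1pr1 (8.53 against 8.12). Replicate 1 was low for Cox6a2 (59.6 against 71.5) and Cox7a1 (1.61 against 5.02). Replicate 2 was low by TPM for Eef1a1 (11894 against 12305) and Elovl6 (81.8 against 93.4). For Eef1a1 the direction turned by CPM, at 9885, 10256.5, 10180 and 9805, with replicate 2 highest. Replicate 3 was low for Acadl (149 against 162).

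Among family shares, in percent of the family TPM, these stood apart. Replicate 1 was low for the share of Itpr3 (65.5% against 69.3%) and Fzd2 (29.7% against 32.9%). Replicate 3 was low for the share of Acaca (90.9% against 93.3%), Nr4a1 (54.9% against 60.1%) and Tnfrsf1a (82.9% against 84.3%). Of the windows of Acaca 52.6% were found in other genes, so its share is uncertain. Replicate 4 was high for the share of Prdx2 (37.4% against 35.7%). Replicate 4 was low for the share of Flna (64.4% against 66.1%). Replicate 1 also stood apart as a library, with a root mean square deviation of 0.188 on the log2 scale against a mean of 0.147. Causes were not tested.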

How the results depend on the processing

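Leaving out each replicate in turn gave 13009 to 13043 genes expressed, 33.1% to 34.1% of TPM in the top 100, 143 to 144 families with the same leader in every library, 121 to 122 with a member at 50% or more, and a median CV of 7.08% to 8.56%, the lowest without replicate 1. The share of the top 100 was 19.6% by CPM, 31.3% without mitochondrially encoded genes and 29.7% over protein-coding genes only. The median CV was 11.02% with no filter on low counts and 6.71% at a mean of 10 CPM or more. The number of expressed genes stayed within 1.5 times under its other thresholds (12223 to 13936), and the other family counts did so too (137 by CPM and 140 by the longest coding transcript for the same leader, 122 and 115 for 50% or more, and 129 among leaders of 10 TPM or more). Of 136 leads of a first over a second member, as log2 ratios, 13 turned by CPM: Mef2d over Mef2a (-0.22), Tnnt1 over Tnnt2 (-1.35), Nrap over Ttn (-2.28), Cdkn2d over Cdkn2c (-0.15), Col1a1 over Col1a2 (-0.48), Hk2 over Hk1 (-0.45), Pfkfb4 over Pfkfb3 (-0.032), Slc27a4 over Slc27a1 (-0.22), Acadl over Acadm (-0.54), Slc25a5 over Slc25a4 (-0.12), Ifngr1 over Ifnar1 (-0.62), S1pr1 over S1pr2 (-1.27) and Tlr2 over Tlr4 (-0.53). By the length of the longest protein-coding transcript, added after the data were seen, 11 turned: Mef2d over Mef2a (-0.19), Tnnt1 over Tnnt2 (-1.18), Atp2b4 over Atp2b1 (-0.63), Hspb8 over Cryab (-0.24), Col1a1 over Col1a2 (-0.63), Hk2 over Hk1 (-0.81), Prkab2 over Prkab1 (-0.13), Slc27a4 over Slc27a1 (-0.76), Acadl over Acadm (-0.45), S1pr1 over S1pr2 (-0.20) and Tlr2 over Tlr4 (-0.094). Leaving out 1 replicate turned only Lpin1 over Lpin3, to -0.033 without replicate 3 and -0.066 without replicate 4, against 0.078 without replicate 2, the highest. The length and the denominator moved the TPM of 300 and 354 of the 397 named genes past 1 SD, so TPM values hold for the listed lengths and all genes. The coding length from a RefSeq protein table was not run, as that table was not used here. No paired analysis was possible because a single group was described. Depth limits low genes: 3 counts correspond to 0.0657 to 0.0993 CPM in 1 library.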

Other observations

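Transcription factors were also ranked as a whole, with those in the families included, and Ybx1 and Atf4 were the highest. Of 1469 listed factors 56.4% were expressed, at a median of 13.1 TPM against 20.9 TPM for all expressed genes. Ybx1, a cold-shock domain protein, was at 1359, 1371, 1355 and 1433 TPM, and Atf4, the effector of the integrated stress response, at 1188, 1194, 1255 and 1188 TPM. Atf5, of the same bZIP class, was at 403, 481, 519 and 493 TPM, lowest in replicate 1. Ddit3 (CHOP), a target of Atf4, was at 175, 175, 179 and 157 TPM. Snai2, a zinc finger factor of mesenchymal cells, was at 243 ± 19.5 TPM, above Myod1 in each library.

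Among 9680 long noncoding genes 552 were expressed. H19, an imprinted transcript next to Igf2 and abundant in muscle precursors, was the highest at 1079, 1117, 1161 and 1219 TPM, with a CV of 5.42%. Igf2 itself had 0 counts, with the overlap with Gm49394 given above. Xist, the transcript of the inactive X chromosome, was at 292, 223, 250.5 and 269 TPM, and Malat1 at 261 ± 16.4 TPM. Gm10076, a short lincRNA gene, was at 298, 324, 177 and 136 TPM, high in replicates 1 and 2, with a CV of 41.1%.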
